A study of Mus musculus with 9 samples.

Results

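The Iroquois genes Irx1 to Irx6 encode homeodomain transcription factors and lie in a pair of clusters, IrxA on chromosome 13 (Irx1, Irx2 and Irx4) and IrxB on chromosome 8 (Irx3, Irx5 and Irx6). Their accessible chromatin was read from the ATAC-Seq regions of control embryos, taking every region that the deposited annotation assigned to 1 of the 6 genes. This gave 6 of 17164 distinct regions, 3 in each cluster. Irx3 had 3 regions, Irx1 had 2 and Irx2 had 1, and no region was assigned to Irx4, Irx5 or Irx6.

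ATAC-Seq uses a transposase to cut open chromatin, so a region is a stretch where cuts gathered. Libraries were prepared from pharyngeal mesoderm and hearts dissected from mouse embryos at embryonic day 8.75 with 6 somites. There were 9 libraries, 3 from wild-type embryos (control), 3 from Isl1-/- embryos and 3 from Isl1Cre+/-/ Brg1fl/fl embryos, in which Cre made from the Isl1 locus deletes Brg1 in cells that have expressed Isl1. The control group entered as 1 list of regions common to its libraries, and regions of the other groups were not analysed here. The list holds positions without a height or a value per library, so depth is unknown, no replicate error exists for any value below, and every comparison is a description without a test. The tissue was dissected and not sorted, so a site open in few cells cannot be told apart from a site weakly open in many.

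The Iroquois factors belong to the TALE class of homeodomain proteins, which also holds the Meis, Pbx and Tgif families. The clusters arose by duplication, and Irx1 pairs with Irx3, Irx2 with Irx5 and Irx4 with Irx6 as the closest relatives. In the heart, Irx4 is known for the ventricular gene program and Irx3 for fast conduction in the ventricular conduction system. Irx5 is known for the gradient of repolarization across the ventricular wall. Long stretches with few other genes lie between the members of both clusters.

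The sequences of the 6 regions are shown because they are the whole set assigned to the family. Coordinates are on mm9 (NCBIM37). For a region over a gene start, the 300 bases that end just before the GENCODE start are printed on the strand of the gene, and for the others the central 300 bases on the plus strand. Capitals mark matches to any of 12 short motifs spelled out with the motif counts. The 3 windows of IrxA are chr13:72258366-72258665, in the region 157 kb upstream of Irx1, chr13:72347605-72347904, in the region 247 kb upstream of Irx1, and chr13:72765945-72766244, just upstream of the Irx2 start.
Irx1 at 157 kb: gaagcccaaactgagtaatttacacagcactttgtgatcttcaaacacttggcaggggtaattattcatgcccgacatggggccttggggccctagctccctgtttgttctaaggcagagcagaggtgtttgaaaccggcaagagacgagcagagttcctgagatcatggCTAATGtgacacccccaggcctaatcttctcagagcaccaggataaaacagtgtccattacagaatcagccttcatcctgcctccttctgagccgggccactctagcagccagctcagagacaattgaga
Irx1 at 247 kb: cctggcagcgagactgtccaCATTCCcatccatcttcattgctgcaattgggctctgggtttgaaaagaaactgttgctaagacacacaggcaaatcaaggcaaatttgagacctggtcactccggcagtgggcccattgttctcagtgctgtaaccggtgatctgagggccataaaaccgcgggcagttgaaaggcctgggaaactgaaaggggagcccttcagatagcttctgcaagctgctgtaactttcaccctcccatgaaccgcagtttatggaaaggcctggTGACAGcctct
Irx2 upstream of the start: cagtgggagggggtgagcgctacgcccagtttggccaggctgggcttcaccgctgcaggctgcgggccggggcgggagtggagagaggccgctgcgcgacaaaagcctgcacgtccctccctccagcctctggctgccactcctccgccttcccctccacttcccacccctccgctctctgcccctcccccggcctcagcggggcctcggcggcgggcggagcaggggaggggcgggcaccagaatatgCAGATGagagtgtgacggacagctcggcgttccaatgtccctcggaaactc

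The 3 windows of IrxB are chr8:94100124-94100423, in the region within Fto, chr8:94325554-94325853, just upstream of the Irx3 start and printed on the minus strand, and chr8:94345569-94345868, in the region 20.2 kb upstream of Irx3.
Irx3 within Fto: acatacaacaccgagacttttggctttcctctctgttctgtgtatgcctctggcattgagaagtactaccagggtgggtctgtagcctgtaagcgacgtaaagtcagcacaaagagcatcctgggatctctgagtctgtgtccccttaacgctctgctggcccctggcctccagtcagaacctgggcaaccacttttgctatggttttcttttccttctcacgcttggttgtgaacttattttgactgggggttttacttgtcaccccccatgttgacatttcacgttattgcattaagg
Irx3 upstream of the start: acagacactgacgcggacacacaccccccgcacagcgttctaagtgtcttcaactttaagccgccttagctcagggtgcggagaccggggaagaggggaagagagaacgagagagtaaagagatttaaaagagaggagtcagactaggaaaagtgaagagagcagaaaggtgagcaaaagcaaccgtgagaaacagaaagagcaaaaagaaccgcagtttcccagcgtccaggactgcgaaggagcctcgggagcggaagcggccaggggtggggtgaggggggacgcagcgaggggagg
Irx3 at 20.2 kb: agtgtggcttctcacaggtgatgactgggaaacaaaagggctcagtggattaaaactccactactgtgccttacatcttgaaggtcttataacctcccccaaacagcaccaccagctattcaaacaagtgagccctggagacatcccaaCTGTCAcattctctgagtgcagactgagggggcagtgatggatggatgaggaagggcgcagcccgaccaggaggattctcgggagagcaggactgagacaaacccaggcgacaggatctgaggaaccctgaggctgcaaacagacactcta

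A further pair of windows is shown for regions that lie at an Irx gene and are assigned to another, chosen after their values were seen. The window chr8:94880020-94880319 lies just upstream of Crnde on the minus strand and between the starts of Crnde and Irx5, and chr13:73297800-73298099 is the center of a region 99995 bp upstream of Irx4 that was assigned to the noncoding gene 4930555K05Rik.
Between Crnde and Irx5: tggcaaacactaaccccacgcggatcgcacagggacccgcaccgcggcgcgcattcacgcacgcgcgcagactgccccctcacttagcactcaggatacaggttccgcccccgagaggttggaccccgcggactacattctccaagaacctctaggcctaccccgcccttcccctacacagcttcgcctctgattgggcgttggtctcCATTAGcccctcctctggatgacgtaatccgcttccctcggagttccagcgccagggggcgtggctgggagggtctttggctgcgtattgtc
Upstream of Irx4: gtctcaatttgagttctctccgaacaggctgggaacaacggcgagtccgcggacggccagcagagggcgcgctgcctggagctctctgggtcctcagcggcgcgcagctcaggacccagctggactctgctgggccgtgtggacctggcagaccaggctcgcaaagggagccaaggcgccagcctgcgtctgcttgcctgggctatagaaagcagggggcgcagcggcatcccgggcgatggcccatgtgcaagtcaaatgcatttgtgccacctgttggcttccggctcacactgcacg

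Taking the genes in turn, accessible regions covered the starts of Irx2 and Irx3 and of no other member. Irx2 (13:72766245-72771644, plus strand) had 1 region, 13:72765365-72766938, which was 1574 bp wide with its midpoint 94 bp upstream of the start. Irx3 (8:94322428-94325553, minus strand) had a region of almost the same width at its start, 8:94325006-94326576, which was 1571 bp wide with its midpoint 238 bp upstream. These genes come from different clusters and are not each other's closest relatives. The Irx3 region also held a start of D230002A01Rik, a long noncoding RNA transcribed in the opposite direction, so the region cannot be given to 1 of the 2 starts.

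These counts were near those of coding genes in general. A region within 1 kb of the start was present for 2 of the 6 Irx genes against 40.6% of 21031 protein-coding genes, and 3 of the 6 had any assigned region against 49.3%. The midpoint of a region, whichever gene it was assigned to, lay within 1 kb of a GENCODE start for the same 2 genes, against 47.2% of 20399 coding genes. Irx3 was in the 4.96% of coding genes with 3 or more regions. Irx1 was in the 8.66% whose regions all lay beyond 1 kb from the start.

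**Figure D1:**
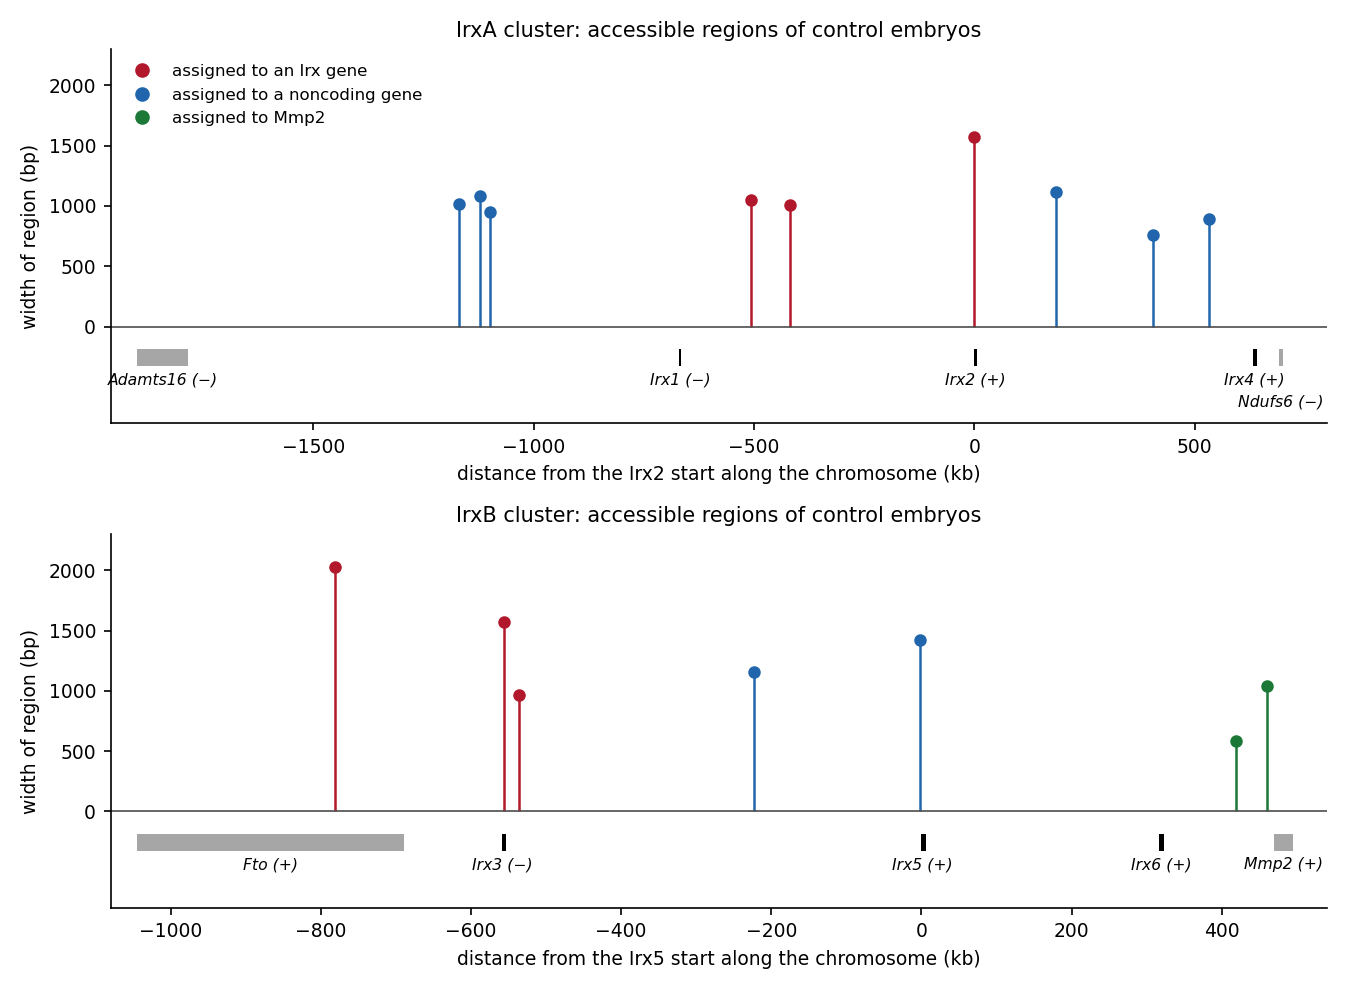
Accessible regions of control embryos at the IrxA (top) and IrxB (bottom) clusters, with distance in kb from the Irx2 or Irx5 start along the chromosome on the x axis and region width in bp on the y axis. Each point is 1 region, coloured by the gene it was assigned to, black bars are Irx genes and grey bars the flanking coding genes with their strand, and the 1 region assigned to Fto itself is left out. Regions stand over the starts of Irx2, Irx3 and, beside Irx5, Crnde, and the widest of the 16, at 2027 bp, lies within Fto.

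Irx1 (13:72095680-72101171, minus strand) had no region at its start. Both of its regions lay far upstream, in the 665 kb between Irx1 and Irx2, and neither fell in an annotated gene. The nearer, 13:72257991-72259041, was 1051 bp wide and 157345 bp from the start, and the farther, 13:72347254-72348257, was 1004 bp wide and 246584 bp away. The nearest region of any kind to the Irx1 start was the nearer of these, and 90.1% of coding genes had a region closer than that. In this and the like shares below, coding genes were measured from their annotated start nearest to a region, and Irx genes from their first start. Irx1 had the most remote nearest region of the 6 members.

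Irx3 had 2 more regions on either side of its start. The region 8:94345235-94346203 was 969 bp wide and lay 20166 bp upstream, in no annotated gene. It carries an internal repeat, and 101 of its 792 distinct 31-base words occurred more than once within it. In the whole genome 117 of those words, or 14.8%, occurred more than once, and this count includes the 101 repeated within the region. Reads from there are thus less certain in position than those from the other 5 regions, where the share was at most 0.25%.

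The other region, 8:94099261-94101287, was the only 1 of the 6 on the downstream side of its gene. It was 225279 bp from the Irx3 start and inside Fto, in intron 8, the last of that gene's 8 introns. Fto encodes an RNA demethylase, and its introns are known to hold enhancers of Irx3. Whether this region is among those enhancers was not tested. The first Fto start was farther from this region, at 263 kb, than the Irx3 start, although an internal start of Fto, annotated for a processed transcript, was nearer than either. At 2027 bp the region was the widest assigned to any Irx gene, and only 40 of the 2550 regions beyond 100 kb from their assigned start were at least as wide. Fto spans 355 kb (8:93837431-94192338), and the only other region with its midpoint there was assigned to Fto itself and was 598 bp wide.

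**Figure D2:**
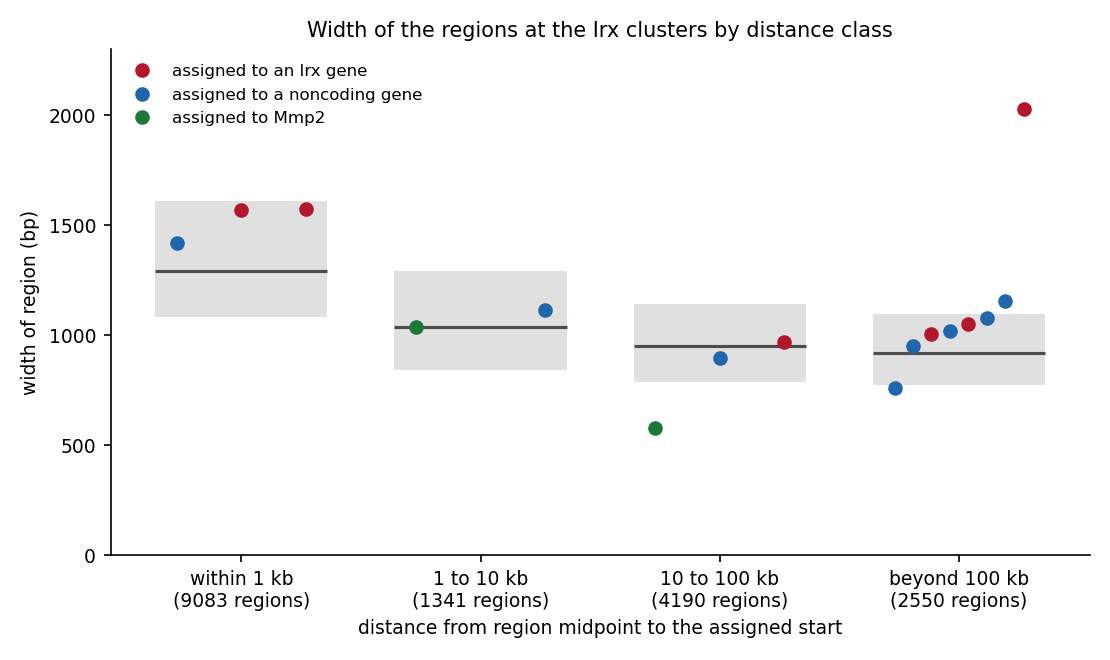
Width in bp of the 16 regions at the Irx clusters (points, coloured by assigned gene) by distance of the midpoint from the assigned start. Grey boxes run from the lower to the upper quartile of all regions in each class and lines are their medians, and points are spread sideways only for legibility. The region within Fto stands at 2027 bp, above the box of its class, while the other Irx regions lie inside theirs.

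All 6 regions were wider than the median of their distance class. The class median was 1294 bp within 1 kb of a start, 949.5 bp from 10 to 100 kb and 919 bp for more remote regions. Apart from the region within Fto, each also lay below the upper quartile of its class. The median width was 1311 bp, from 969 to 2027 bp, against 1123 bp over all regions, and together they covered 8196 bp. The median distance of the 6 regions from their starts was 88755.5 bp, against 482 bp over all regions. It falls between regions at 20166 and 157345 bp, and the regions at 94 and 238 bp lay nearer than 482 bp. The 6 regions were upstream in 5 of 6 cases, against 43.8% of all regions, and 3 of 6 were beyond 100 kb, against 14.9%.

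The genes without an assigned region differed in how far away the nearest one was. Irx5 (8:94881695-94885351, plus strand) had one close by. Crnde, a long noncoding RNA, starts 1676 bp from Irx5 and is transcribed away from it, and its region, 8:94879363-94880782, was 1420 bp wide and ended 913 bp short of the Irx5 start. The midpoint was 1623 bp from that start, and 48.0% of coding genes had a nearer region. Widening the limit from 1 kb to 2500 bp around the start, whichever gene a region was assigned to, added Irx5 and made 3 of the 6, in a setting chosen after the values were seen.

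Irx4 (13:73397945-73407068, plus strand) and Irx6 (8:95198188-95204855, plus strand) had nothing of the kind. For Irx4 the nearest midpoint was 68063 bp downstream, at the start of Ndufs6, which encodes a subunit of respiratory complex I. For Irx6 it was 102985 bp downstream, in a region assigned to Mmp2, which encodes a secreted gelatinase. A nearer region was present for 79.6% and 85.4% of coding genes, respectively. Irx4 and Irx6 are the closest relatives of each other, each at the far end of its cluster. No region lay in the 50.2 kb between Irx4 and Ndufs6, or in the 313 kb between Irx5 and Irx6.

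**Figure D3:**
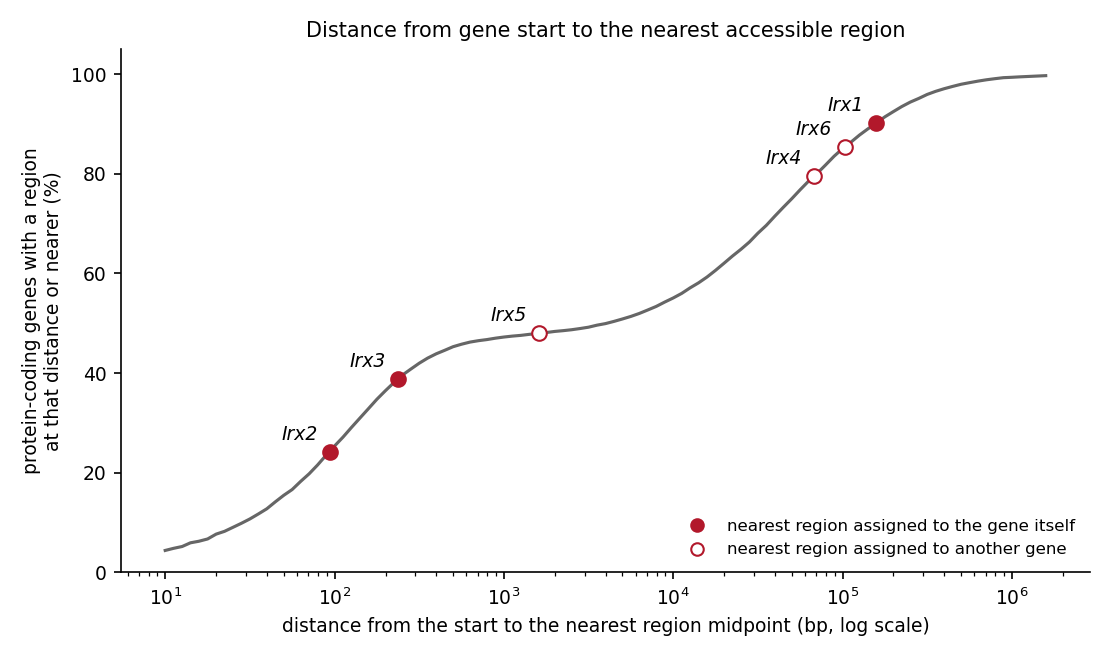
Share of protein-coding genes (%) with a region midpoint at or nearer than the distance on the x axis (bp, log scale), from the GENCODE start nearest to a region. Points mark the 6 Irx genes, measured from their first start, filled where the nearest region was assigned to the gene itself and open where to another. Irx2, Irx3 and Irx5 lie on the near side, at 94, 238 and 1623 bp, and Irx4, Irx6 and Irx1 lie at 68.1, 103 and 157 kb.

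The CpG content of the 6 starts was compared with that of other coding genes. Starts rich in the dinucleotide CpG are those most often open across tissues. Counted over 500 bp to either side of the start, Irx2 had 12.3 CpG per 100 bp, Irx1 11.1, Irx5 9.89, Irx3 9.39, Irx4 8.89 and Irx6 6.39. All were above the median of 5.09 for coding genes. For coding genes in general the annotated start with the most CpG was taken, and for each Irx gene its first start. The lowest values belong to Irx4 and Irx6, which lack a region within 1 kb. Irx1 and Irx5 lack one as well, with more CpG than Irx3, which has one. Irx1 was denser in CpG than 93.4% of coding genes and second only to Irx2 in the family. Of coding genes with at least the CpG content of Irx1, 76.8% had a region within 1 kb, and the share was 75.9% for Irx4, 76.8% for Irx5 and 73.7% for Irx6.

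**Figure D4:**
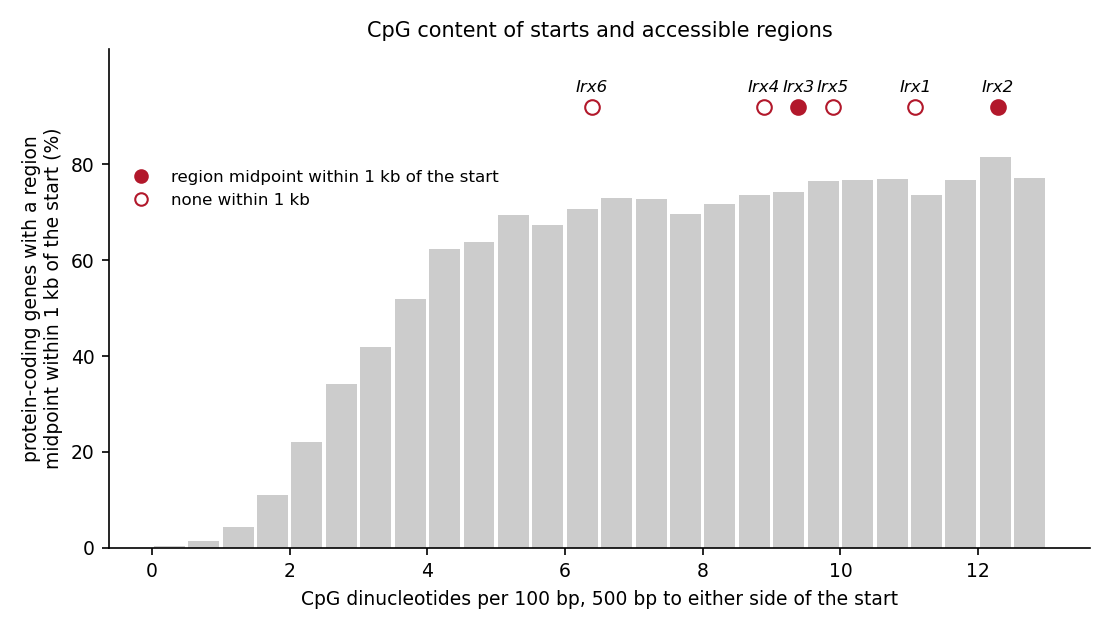
Share of protein-coding genes (%) with a region midpoint within 1 kb of an annotated start, in bins of CpG dinucleotides per 100 bp (grey bars, starting at 0). CpG was taken around the annotated start with the most CpG for the bars, and around the first start for the Irx genes. The points above the bars give the CpG content of the 6 Irx genes, filled with a region and open without, and have no value on the y axis. Irx1, Irx4, Irx5 and Irx6 lack a region, and the bars at their CpG content stand above 70%.

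Counting only regions named for an Irx gene leaves out most of the open chromatin around the family. Between the flanking coding genes, and counting the region within Fto, there were 16 regions, 9 at IrxA and 7 at IrxB. The Irx genes took 6, noncoding genes took 8 and Mmp2 took 2. Noncoding genes thus received 50.0% of these regions, against 10.2% of all regions in the list. The 2 shares are not a like comparison. The intervals end at the nearest coding genes, so a region inside had few coding genes to go to, whereas 52.9% of all regions lay within 1 kb of their assigned start. Only 2 of the 16 held an Irx start, and 14 had their midpoint in no annotated gene.

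At IrxA, 3 regions lay in the 1115 kb between Adamts16 and Irx1. They were assigned to the microRNA gene Mir466f-4 and spanned 13:71595849-71596866 (1018 bp), 13:71644949-71646027 (1079 bp) and 13:71666844-71667793 (950 bp), between 434 and 505 kb from the Irx1 start on its downstream side. A further 3 lay in the 626 kb between Irx2 and Irx4. The first, 13:72952323-72953437, was 1115 bp wide, was assigned to the noncoding gene D730050B12Rik and lay 187 kb beyond the Irx2 start. The others were assigned to 4930555K05Rik and lay upstream of Irx4, 13:73171677-73172435 (759 bp) at 226 kb and 13:73297503-73298398 (896 bp) at 99995 bp.

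The region 99995 bp upstream of Irx4 was rich in CpG at its center. The central 300 bases, printed above, held 65.0% G or C and 21 CpG, more CpG than 92.8% of the regions between 10 and 100 kb. Over the whole region the content was lower, at 54.9% G or C and 3.57 CpG per 100 bp. No annotated start lay inside it, and its deposited distance to the 4930555K05Rik start was 68598 bp.

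At IrxB, 4 regions lay in the 556 kb between Irx3 and Irx5. Beside the Irx3 region at 20.2 kb and the region at the Crnde start, they included 8:94657674-94658829, which was 1156 bp wide, was assigned to Crnde and lay 223 kb upstream of Irx5. The region over the Irx3 start was the other. Between Irx6 and Mmp2 were the regions 8:95300884-95301463 (580 bp) and 8:95341738-95342774 (1037 bp), 103 and 144 kb downstream of the Irx6 start. No region lay in the 130 kb between Fto and Irx3, so the region within Fto and the one over the Irx3 start were neighbours.

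Away from starts, regions were about as dense as in the rest of the genome. The interval from Adamts16 to Ndufs6 is 2.48 Mb and held 3.63 regions per Mb, and that from Fto to Mmp2 is 1.16 Mb and held 5.18, against 6.50 over the autosomes and X. Counting only regions beyond 1 kb from their assigned start, the values were 3.23, 3.45 and 3.06 per Mb. Of the flanking genes, Adamts16 and Lpcat2 had no region, Ice1, Ndufs6, Mrpl36, Rpgrip1l and Fto had 1 each, and Mmp2 had 3.

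Which Irx gene a region counts for depended on which transcripts were allowed to claim it. Giving each midpoint to the nearest GENCODE start of a coding gene with a curated RefSeq transcript raised the total from 6 to 13 and the number of Irx genes with a region from 3 to 5. Irx1 then had 5, and Irx2, Irx4, Irx3 and Irx5 had 2 each. Irx5 gained both Crnde regions, Irx4 both regions of 4930555K05Rik, and Irx1 the 3 regions of Mir466f-4. Irx3 lost the region within Fto, for which the internal Fto start was nearer. This setting was chosen after the values were seen. Under the planned nearest GENCODE start of any coding gene, Irx1 had 4 regions, Irx2, Irx4 and Irx3 had 2 each, and Irx5 had none. With the nearest start of any gene, noncoding ones included, the total stayed at 6. Irx2 and Irx4 then had 2 each, and Irx1 and Irx3 had 1 each. The 3 regions of Irx3 and the lack of any for Irx4 thus held only for the deposited assignment. Irx6 had none under any of the assignments tried.

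The 12 motifs were searched on both strands in the central 300 bases of each region. The letters searched were AGATAA for the GATA zinc finger factors, AGGTGTGA for the T-box factors and TNAAGTG for NKX2-5. For homeodomain proteins other than NKX2-5 they were CTAATG for ISL1, TGACAG for the MEIS family and ACANNTGT for the IRX proteins themselves. The muscle factor MEF2 was searched as CTAAAAATA, the HAND factors as CATCTG and the TEAD factors of the Hippo pathway as GGAATG. The architectural protein CTCF was searched as CCACNAGG, the forkhead FOX proteins as GTAAACA and the Wnt effectors TCF/LEF as CTTTGAT. Other spellings of these motifs were not searched, so a region counted without a motif may hold another form of it. The 6 Irx regions held 5 pairs of a region and a motif. The region 157 kb upstream of Irx1 held ISL1, the one at 247 kb TEAD and MEIS, the Irx2 region HAND, and the Irx3 region at 20.2 kb MEIS. Of regions beyond 1 kb from their assigned start, the class of the Irx1 regions and of the Irx3 region at 20.2 kb, 11.2% held ISL1, 22.2% TEAD and 23.2% MEIS. Of regions within 1 kb, the class of the Irx2 region, 8.98% held HAND.

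The region within Fto and the region over the Irx3 start held none of the 12 motifs in these bases, as did 42.4% of all regions and 25.7% of those beyond 1 kb, the class of the region within Fto. In the central 300 bases none of the 6 held GATA, T-box, NKX2-5, MEF2, IRX, CTCF, FOX or TCF/LEF. Over all regions, GATA was in 8.54%, NKX2-5 in 9.78%, CTCF in 6.57% and IRX in 4.74%. FOX was in 3.58%, TCF/LEF in 3.21%, T-box in 0.577% and MEF2 in 0.256%. The shares were higher among regions beyond 1 kb, the class of 4 of the 6. There GATA was in 14.5%, NKX2-5 in 14.2%, CTCF in 7.83% and IRX in 7.82%. FOX was in 5.53% of that class, TCF/LEF in 5.17%, T-box in 0.817% and MEF2 in 0.396%. Over whole regions NKX2-5 was in 1 of the 6, CTCF in 1 and TCF/LEF in 2, and GATA, T-box, MEF2, IRX and FOX were in 0. Shares over all regions were counted in the central 300 bases only, so none stands beside these whole-region counts. In the central 300 bases of all 16 regions, MEIS was in 7 and HAND in 6. TEAD and GATA were in 2 each, and NKX2-5 and CTCF in 1 each. T-box, MEF2, FOX and TCF/LEF were in 0. Of the 16, 13 lay more than 1 kb from their assigned start. Among all regions in the list that lay so far away, 23.2% held MEIS, 22.2% TEAD, 21.9% HAND, 11.2% ISL1 and 7.82% IRX. The differences were not tested. ISL1 was in 2, the Irx1 region at 157 kb and the region between Crnde and Irx5. The IRX motif was in 1, the Crnde region 223 kb upstream of Irx5, where it overlaps a MEIS match. A match is a run of letters, and binding was not measured here.

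The regions of the clusters gave no alignment with each other at the limit used, and weaker likeness was not searched. With blastn at an expect value of 0.001, 0 of 63 pairs with 1 region from each cluster aligned, and 0 of 57 pairs within a cluster. The regions over the Irx2 and Irx3 starts, alike in width, differed in composition. The bases printed upstream of Irx2 held 70.3% G or C and 23 CpG, and those upstream of Irx3 held 56.3% and 17. Over the central 300 bases, the Irx3 region was lower in G and C than all but 6.94% of regions within 1 kb of a start. Over whole regions the difference was smaller, with 68.5% G or C for Irx2 and 64.2% for Irx3.

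Regions were also counted at the other TALE genes. Of 12 members of the Meis, Pbx, Pknox, Tgif and Mkx families, 11 had a region and 8 had one within 1 kb, against 3 and 2 of the 6 Irx genes and 49.3% and 40.6% of all coding genes. The difference was not tested. Tgif1 had 7 regions and Meis2 had 5, and Pbx2 had none. The tissue label was read against markers by the number with a region within 1 kb of the start. This held for 40.6% of all coding genes, and for 5 of 10 genes of heart and pharyngeal mesoderm, Isl1, Tbx20, Mef2c, Hand2 and Myocd, and not for Nkx2-5, Tbx5, Tbx1, Tnnt2 or Gata4. It held for 2 of 6 neural tube genes, 1 of 3 neural crest genes and 1 of 5 endothelial genes, and for 0 of 4 in each of foregut endoderm, surface ectoderm and blood. Counting regions at any distance did not set heart apart, with 6 of 10 heart genes, 4 of 6 of neural tube, 3 of 4 of foregut endoderm, 2 of 3 of neural crest, 3 of 5 of endothelium, 2 of 4 of surface ectoderm and 1 of 4 of blood, against 49.3% of coding genes. Iroquois genes are also known from neural tissue, and the part of other cell types in their regions was not tested.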

How the data were processed

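ATAC-Seq libraries of 3 control, 3 Isl1-/- and 3 Isl1Cre+/-/ Brg1fl/fl embryo samples were grouped by labelled genotype. According to the methods, the authors aligned read pairs to mm9 using bowtie2, removed duplicates with Picard 1.136, called peaks with MACS14, removed blacklisted regions and kept those common to the control replicates with bedtools 2.15, by an overlap of at least 1 bp. Extension of tags widens regions, no Tn5 offset is given, and requiring every replicate favors strong sites. The deposited list holds coordinates, distance to a start, transcript and symbol. The tool that assigned genes to these regions is not given in the sources used here.

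Duplicate rows were counted once (17432 rows, 17164 regions). Gene structure came from GENCODE on NCBIM37, and gene types and promoters from RefSeq tables (GRCm38.p6), which held promoters of Irx2, Irx3 and Irx4. Python 3.11.15, numpy 2.4.6 and blastn 2.17.0 were used, and counting was tested on simulated data. Members, gene lists and motifs were chosen with earlier results of these data known. The genes named were the 6 Irx genes, the noncoding genes between them, the nearest 2 coding genes on each side and the list genes with most regions, and some list genes are not reported here by name.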

Additional observations from a re-analysis of the deposited data

How the results depend on the processing

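Of 49 values recomputed under another setting, 32 stayed within 1.5 times the reported one and 17 moved further. The 6 assigned regions became 3 when those narrower than the overall median were dropped, 10 with the nearest GENCODE start of a coding gene and 15 when all regions between the flanking genes were counted. An alternative chosen after seeing the data, the nearest coding start with a curated transcript, gave 13 regions and 5 Irx genes with a region in place of 3. The median distance of 88755.5 bp became 157345 bp over all regions between the flanking genes, measured to the nearest Irx start. The 5 pairs of a region and a motif became 3 in 200 bp and 16 in whole regions. The number of Irx genes with a region within 1 kb was 2 under each planned setting and 3 with any region within 2500 bp, a setting added later, and median width and GC content also stayed within the limit. No paired analysis was possible because the control replicates share 1 list without a value per library, and for the same reason no replicate could be left out. Depth is unknown, so a missing region does not show closed chromatin, and width cannot be separated from depth.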

Other observations

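Genes that act with the Iroquois factors in the heart, or that they control, were counted in the same list. Of 15 such genes, 6 had any region, and for 3 it lay within 1 kb of the start, against 49.3% and 40.6% of all coding genes. Hey2, a repressor of atrial genes in the ventricle, Tbx20, a T-box factor of the heart, and Gja1, which encodes the gap junction protein connexin 43, had 4 regions each. Kcnd2, which encodes a potassium channel subunit of the repolarizing current, had 2, both beyond 100 kb from the start, the nearer at 109434 bp. Hand2 and Gata4 had 1 each. Those without a region included Tbx5, Nkx2-5, Hand1, Bmp10, Nppa, Myl2, Myh7 and Gja5.

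The region 8:95341738-95342774, assigned to Mmp2 and 144 kb downstream of the Irx6 start, also held repeated sequence. Of its 992 distinct 31-base words, 10.8% occurred more than once in the genome.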
